A study of Mus musculus with 6 samples.

Results

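The S100 calcium-binding proteins were examined in the tongues of C57BL/6J mice, whose age the labels do not give. In 1 group, 3 mice were given 4-nitroquinoline 1-oxide (4NQO) at 100 μg/ml in their drink for 8 weeks, and 3 controls were given none. 4NQO is a DNA-damaging quinoline that is used to induce tongue tumors in rodents. Each tongue was its own mouse and its own array, and every mouse was of the same inbred strain with no transgene or other agent. A gene was followed through the probe sets that the array's annotation assigns to its symbol alone, and the probe set with the highest mean log2 signal over the 6 arrays stood for it. The family list held 10 members, namely S100a8, S100a9, S100a3, S100a4, S100a6, S100a10, S100a11, S100a13, S100a14 and S100a16. Of these, 9 had a probe set of their own, with 12 probe sets in all, among 18193 such genes on the array. The S100a11 probe set is shared with other genes in the annotation, so S100a11 was not measured on its own and no value is given for it.

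S100 proteins are small proteins that bind calcium through EF-hand loops and then dock onto partner proteins, and most of their genes lie side by side on 1 chromosome beside the genes of the cornified envelope. S100A8 and S100A9 pair to form calprotectin, which binds zinc and manganese, is a main cytosolic protein of neutrophils and monocytes, and is made by keratinocytes of wounded or inflamed epithelium. Outside cells they can signal through Toll-like receptor 4 and the receptor for advanced glycation end products. Other members work inside the cell: S100A10 holds annexin A2 at membranes, S100A4 binds non-muscle myosin, S100A6 binds annexins and the calcyclin-binding protein, and S100A13 takes part in the release of FGF1.

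S100a8 and S100a9 had been selected on these same arrays for uneven levels among the treated tongues. Their values, differences and spreads are therefore given as a description, with no test, and nothing is drawn from the direction of their difference. The other 7 measured members were tested with limma across all genes. All mouse tongue here is bulk tissue, in which fewer cells of a type and less RNA per cell cannot be told apart.

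A few arrays stood apart. The 3′ minus 5′ difference of the Gapdh control probe sets, a sign of shortened RNA, was 1.67 on control 3 and 1.07 on 4NQO 2 on the log2 scale, against 0.086 to 0.47 on the other arrays. The same difference for actin did not set these 2 arrays alone apart. It was highest on 4NQO 1, at 1.12, with control 3 and then 4NQO 2, at 0.954, next. The other arrays had 0.549 to 0.830. Control 3 and 4NQO 2 were low for the muscle myosin Myh2, at 5.43 and 5.01 against 8.49 to 9.36. They were high for the hair keratin Krt86, at 10.98 and 10.21 against 3.89 to 8.65. Control 2 was the lowest array for several cornified envelope genes, as with Sprr3 at 8.15 against 9.35 to 12.07. Skeletal muscle genes such as Acta1 and Myh4 and the tongue keratins Krt4 and Krt13 were above 13 on all 6 arrays, as the labelled tissue has them.

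The stretches of DNA just before S100a8 and S100a9 are shown because these neighboring genes took up the same order among the treated tongues. Each line gives the 250 bases before the RefSeq transcript start in build GRCm38.p6, on the gene's own strand, and capitals mark matches to TTNNGNAA, a loose form of the site bound by C/EBP factors, on either strand. The S100a8 stretch is chr3:90668821-90669070 on the plus strand and the S100a9 stretch is chr3:90695722-90695971 on the minus strand.
S100a8: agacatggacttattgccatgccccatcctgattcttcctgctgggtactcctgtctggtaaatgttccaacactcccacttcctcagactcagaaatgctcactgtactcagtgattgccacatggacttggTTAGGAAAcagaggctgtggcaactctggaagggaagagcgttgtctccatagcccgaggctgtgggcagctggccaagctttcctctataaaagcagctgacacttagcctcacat
S100a9: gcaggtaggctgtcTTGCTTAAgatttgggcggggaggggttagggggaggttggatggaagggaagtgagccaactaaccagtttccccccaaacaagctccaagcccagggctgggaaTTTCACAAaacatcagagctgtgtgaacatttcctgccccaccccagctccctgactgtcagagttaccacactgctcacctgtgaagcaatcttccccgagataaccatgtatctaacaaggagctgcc
The S100a8 stretch held 1 match and the S100a9 stretch held 2. Of 32851 mouse promoter windows of this length, 36.8% held at least 1 match, so the match is a common one. Neither stretch held the AP-1 letters TGANTCA, which 6.75% of windows held, nor the antioxidant response letters TGACNNNGC, which 10.2% held. These are matches of letters only and say nothing of binding. RefSeq windows were at hand for 8 of the 10 members, with 12 windows in all. S100a10 and S100a14 had none.

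S100a8 had a log2 signal of 7.01, 5.79 and 7.45 on control arrays 1, 2 and 3 and of 8.04, 9.27 and 11.24 on 4NQO arrays 1, 2 and 3. All 4NQO arrays lay above all control arrays, a state that 9.59% of all genes had. The 4NQO 1 array was close to the highest control, and 4NQO 3 was far above every other array. The mean was 6.75 ± 0.86 (SD, n = 3) in controls and 9.51 ± 1.61 (SD, n = 3) in treated tongues, a difference of 2.76 or 6.79-fold in signal. Against the control mean, the signal was 2.44 times as high on 4NQO 1, 5.73 times on 4NQO 2 and 22.4 times on 4NQO 3. The fold over all treated tongues thus lay between an array close to the controls and an array far from them.

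S100a9, the partner of S100a8, had a log2 signal of 6.34, 6.38 and 7.72 on the control arrays and of 7.09, 9.61 and 11.55 on the 4NQO arrays. The groups overlapped, since 4NQO 1 lay below control 3. The mean was 6.82 ± 0.79 (SD, n = 3) in controls and 9.42 ± 2.24 (SD, n = 3) in treated tongues, a difference of 2.60 or 6.07-fold. Against the control mean, the signal was 1.21 times as high on 4NQO 1, 6.92 times on 4NQO 2 and 26.7 times on 4NQO 3. For both genes the order among treated tongues was 4NQO 3, then 4NQO 2, then 4NQO 1, and control 3 was the highest control.

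The spread among treated tongues was wide for both genes. From the lowest to the highest 4NQO array, S100a8 covered 3.20 log2 units and S100a9 covered 4.47. Only 64 genes (0.352%) had a wider range among the 4NQO arrays than S100a8, and 30 (0.165%) had a wider range than S100a9, values that the selection itself used. Among controls the ranges were 1.66 and 1.38. Without 4NQO 3, the difference was 1.90 for S100a8 and 1.53 for S100a9. Without 4NQO 1, it was 3.50 and 3.76. The S100a8 probe set, 1419394_s_at, carries a suffix used where probes can match more than 1 transcript, although the annotation names S100a8 alone.

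**Figure D1:**
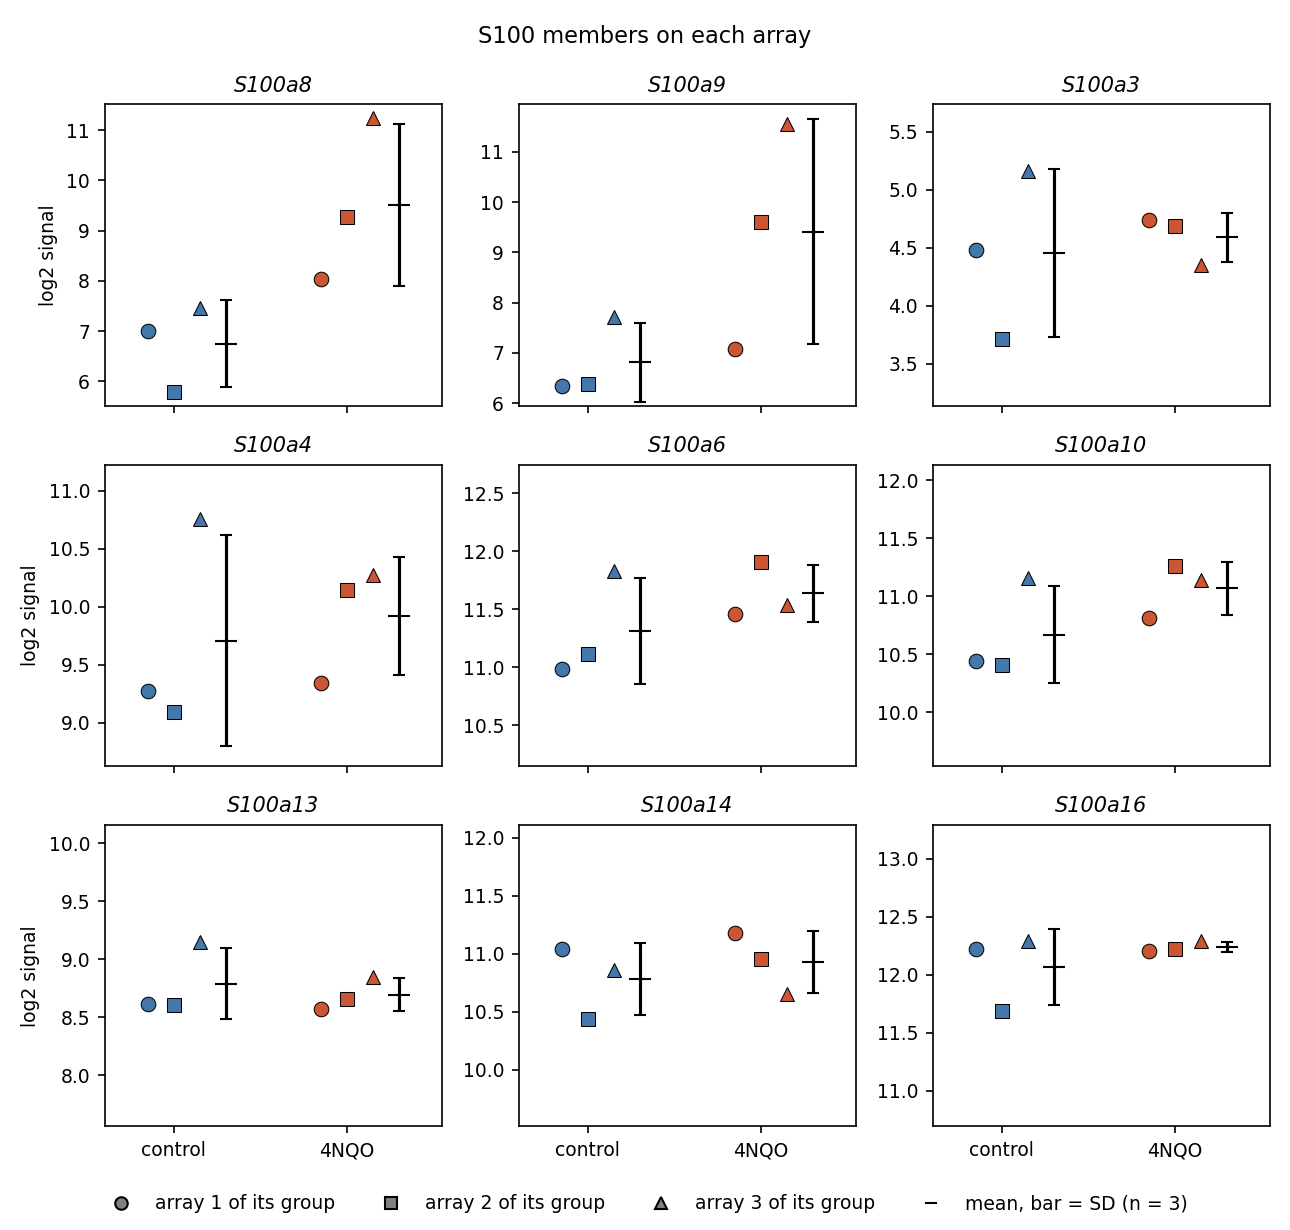
Log2 signal (vertical axis) of the 9 measured S100 members in control (blue) and 4NQO (red) tongues, 1 point per array with the mean and SD of 3 arrays at the side. S100a8 and S100a9 are drawn on a taller scale than the rest; 4NQO 3 stands at 11.24 and 11.55 for them, while the groups of the other 7 members overlap.

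Of the 7 tested members, 0 passed an adjusted p of 0.05 in limma, and 0 had an unadjusted p under 0.05. SAM and the methods' t-test also called 0 of them. Over all 18193 genes, limma called 23 higher (0.126%) and 1 lower (0.0055%) after adjustment, and at an unadjusted p under 0.05 it called 6.68% higher and 3.74% lower. None of the 7 had groups that did not overlap, against 9.59% of all genes with every 4NQO array above every control and 7.18% with every 4NQO array below. The adjusted p of the 7 ran from 0.566 to 0.909. Their median difference was 0.17, beside -0.01 over all genes. With 3 arrays a group, an exact permutation test of a single gene cannot go below p = 0.1.

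The groups of S100a10, S100a6 and S100a4, members that bind annexins or myosin, overlapped. S100a10, the light chain that pairs with annexin A2, had a log2 signal of 10.44, 10.41 and 11.15 in controls and 10.82, 11.26 and 11.14 in treated tongues. Control 3 lay among the treated arrays and the others did not. The difference was 0.40 with a standard error of 0.22 and 95% limits of -0.10 and 0.91 (limma, adjusted p = 0.566). Of its other probe sets, 1456642_x_at gave 0.48 (limma, adjusted p = 0.440 over all probe sets) and 1439348_at gave -0.38 (adjusted p = 0.681), so the probe sets did not share a direction.

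S100a6, also called calcyclin, had a log2 signal of 10.98, 11.12 and 11.83 in controls and 11.45, 11.91 and 11.54 in treated tongues. Again control 3 lay high, next to the highest treated array. The difference was 0.32 with a standard error of 0.23 (limma, adjusted p = 0.658). S100a4, which binds non-muscle myosin and is abundant in fibroblasts and leukocytes, had 9.27, 9.10 and 10.76 in controls and 9.34, 10.14 and 10.28 in treated tongues. Control 3 was the highest array of all, and the difference was 0.21 with a standard error of 0.44 (limma, adjusted p = 0.894). It turned to -0.0051 without control 1 and to -0.093 without control 2.

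In these 3 members control 3 lay well above the other controls. This was not particular to them, since control 3 was also the highest control for S100a8, S100a9, S100a3, S100a13 and S100a16. Without control 3, all 3 had every treated array above every control array, a state that 17.3% of all genes then had. Their differences were then 0.64 for S100a10, 0.59 for S100a6 and 0.74 for S100a4, with limma adjusted p of 0.184, 0.218 and 0.329. Without both arrays of weak 5′ Gapdh signal, control 3 and 4NQO 2, the differences were 0.55, 0.45 and 0.63, and the same 3 of 7 members had groups that did not overlap, against 23.1% of all genes. Whether the state of the RNA or the piece of tongue sampled had a part in these levels was not tested.

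The groups of the epithelial members overlapped. S100a14, a protein of squamous epithelia, had a log2 signal of 11.04, 10.44 and 10.86 in controls and 11.18, 10.95 and 10.65 in treated tongues, with control 2 lowest and treated arrays mixed among the controls. The difference was 0.15 with a standard error of 0.19 and 95% limits of -0.30 and 0.60 (limma, adjusted p = 0.821). S100a16 had 12.22, 11.69 and 12.29 in controls and 12.21, 12.23 and 12.29 in treated tongues. Apart from control 2 the arrays spanned very little, and the treated tongues covered 0.084 log2 units, a range that 94.9% of genes exceeded. The difference was 0.17 with limits of -0.20 and 0.55 (limma, adjusted p = 0.732), and its second probe set, 1447676_x_at, gave 0.21.

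S100a13 had a log2 signal of 8.61, 8.61 and 9.15 in controls and 8.57, 8.66 and 8.85 in treated tongues. Its difference of -0.10, with limits of -0.52 and 0.32 (limma, adjusted p = 0.881), turned to 0.081 without control 3. S100a3, known from the hair cuticle, gave a log2 signal of 4.48, 3.71 and 5.16 in controls and 4.73, 4.69 and 4.35 in treated tongues. These values straddle the median of all probe sets on each array, from 4.45 to 4.60, so a signal above background was not shown. Its difference was 0.14 (limma, adjusted p = 0.909).

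**Figure D2:**
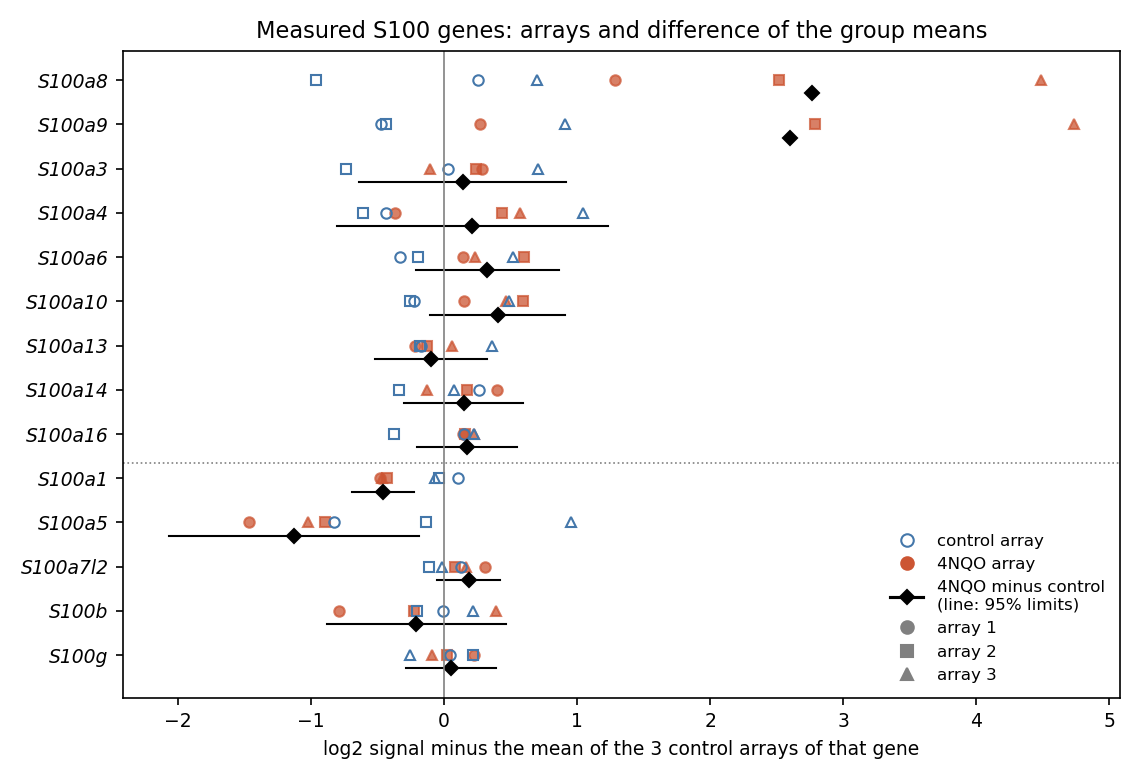
Log2 signal of each array minus the control mean of the gene (horizontal axis) for the 9 measured members, above the dotted line, and 5 other S100 genes, with control arrays open and 4NQO arrays filled. Black diamonds give the difference of the group means with 95% limits where a gene was tested; S100a1 lies below 0 with limits of -0.69 and -0.23, and S100a8 and S100a9 carry no limits because they were selected on these arrays.

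Of S100 genes outside the list, 5 had a probe set of their own. S100a1, the S100 protein of heart and skeletal muscle, had a log2 signal of 12.04, 11.90 and 11.87 in controls and 11.45, 11.51 and 11.47 in treated tongues. The arrays were tight within each group and the groups did not overlap. The difference was -0.46 with a standard error of 0.10 (limma, unadjusted p = 0.00177, adjusted p = 0.149), and it did not pass the threshold. Its second probe set, 1417421_at, gave -0.54 with groups that did not overlap either (limma, adjusted p = 0.281). Beside it, 0 of 10 skeletal muscle markers passed the adjusted threshold in limma and 0 had an unadjusted p under 0.05. In 1 of them (Myh4) the treated group was lower without overlap, against 7.18% of all genes. Their median difference was -0.15.

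S100a5, a gene of the olfactory epithelium, had a log2 signal of 3.74, 4.43 and 5.52 in controls and 3.10, 3.67 and 3.54 in treated tongues. It exceeded the array median on 1 array, control 3, so it was not shown to be above background, and its difference of -1.13 did not pass (limma, adjusted p = 0.398). S100b, a Schwann cell and glial gene, had 5.61, 5.42 and 5.84 in controls and 4.84, 5.40 and 6.01 in treated tongues, which overlapped (limma, adjusted p = 0.831). S100a7l2 and S100g, the latter an intestinal calcium carrier, lay under the array median on all 6 arrays.

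Genes that follow S100a8 and S100a9 across the arrays were sought by Pearson's r over the 6 arrays among genes with a mean log2 signal of at least 6. The groups differ and 4NQO 3 is extreme, so r is only a description here. For S100a8, the most alike were Palmd (r = 0.993), the leukocyte adaptor Cytip (0.987), the MHC class II chain H2-Aa (0.983), the selectin ligand Selplg (0.981) and the Toll-like receptor Tlr2 (0.980). For S100a9 they were the ER chaperone cofactor Dnajb9 (0.990), Selplg (0.989), the myeloid transcription factor Irf8 (0.982), the TGF-beta receptor Tgfbr2 (0.980) and the deiodinase Dio2 (0.978). Likeness in r takes no account of size. Selplg spanned 6.09 to 6.32 in controls and had 6.36, 6.73 and 7.21 in treated tongues, and H2-Aa spanned 9.52 to 10.06 and had 10.59, 10.81 and 11.47.

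Neutrophil and macrophage markers are set beside these values. Of 14 measured neutrophil markers, 9 lay under the array median on all 6 arrays, among them Cxcr2, Mpo, Elane, Ngp, Camp and Mmp8. On 4NQO 3, the neutrophil receptor Csf3r stood at 4.62 against 3.90 to 4.34 elsewhere, while the granule enzyme Mpo was at 3.72, its lowest. Csf3r exceeded the array median on that array alone, where the median was 4.55, so neither gene was shown to be above background. Il1r2, the brightest of the list, had 7.84, 7.91 and 8.29 in controls and 8.14, 8.26 and 7.67 in treated tongues, and Stfa3 had 4.34, 4.03 and 5.21 in controls and 5.09, 5.51 and 4.80 in treated tongues. Over the list, 0 genes passed limma after adjustment and 0 at an unadjusted p under 0.05, and the median difference was -0.01. In 1 gene of the list (Ngp) the treated group was lower without overlap, against 7.18% of all genes. The log2 of the summed signal was 8.66 to 9.07 in controls and 8.86, 9.01 and 10.34 in treated tongues. The high sum on 4NQO 3 rests on Ltf, lactotransferrin, which glands also make, at 3.01, 6.86 and 4.44 in controls and 3.40, 3.01 and 9.82 in treated tongues. Of 11 measured macrophage and monocyte markers, 0 passed limma after adjustment and 0 at an unadjusted p under 0.05. In 1 of them (Ccr2) the treated group was higher without overlap, against 9.59% of all genes. The median difference was 0.23. The log2 sum was 11.76 to 12.74 in controls and 11.79, 12.36 and 12.92 in treated tongues. The brightest were the lysozyme gene Lyz2, at 11.26, 10.79 and 11.91 in controls and 10.68, 11.34 and 11.87 in treated tongues, and the receptor gene Csf1r, at 9.46, 9.34 and 10.16 in controls and 9.56, 9.91 and 10.20 in treated tongues. The part of any cell type in the S100a8 and S100a9 levels was not tested.

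The order 4NQO 3, then 4NQO 2, then 4NQO 1 held for 3 of the 14 neutrophil markers, 6 of the 11 macrophage and monocyte markers and 5 of the 17 antimicrobial and response genes, against 15.9% of all genes. The order was not particular to these lists, since most fibroblast and Schwann cell markers had it too. On 4NQO 1, 2 and 3, the fibroblast marker Lum stood at 9.50, 10.45 and 10.79 and the Schwann cell marker Mbp at 9.37, 10.47 and 10.81. Of 17 measured antimicrobial, IL-17 and IL-1 response genes, 0 passed limma after adjustment, and 3 were higher at an unadjusted p under 0.05, all with groups that did not overlap, against 6.68% and 9.59% of all genes. Il1b, the inflammatory cytokine, had a log2 signal of 4.72, 4.56 and 4.84 in controls and 5.48, 5.87 and 7.46 in treated tongues (difference 1.56, limma adjusted p = 0.286). Saa3, an acute-phase protein made in epithelia and macrophages, had 4.44 to 5.41 in controls and 6.41, 5.90 and 8.55 in treated tongues (2.00, adjusted p = 0.321). Without 4NQO 3 the difference was 0.97 for Il1b and 1.20 for Saa3. The third, Il17a, was under the array median on all 6 arrays, as was Cxcl2, a neutrophil chemokine, at 1.89 to 2.40 in controls and 2.41, 2.25 and 4.00 in treated tongues. The beta-defensin Defb4 had 10.90, 10.24 and 11.97 in controls and 11.63, 12.06 and 11.83 in treated tongues (limma, adjusted p = 0.518). Il1b and Saa3 lay near the array medians in controls, and for both, as for S100a8, 4NQO 3 was the highest array.

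**Figure D3:**
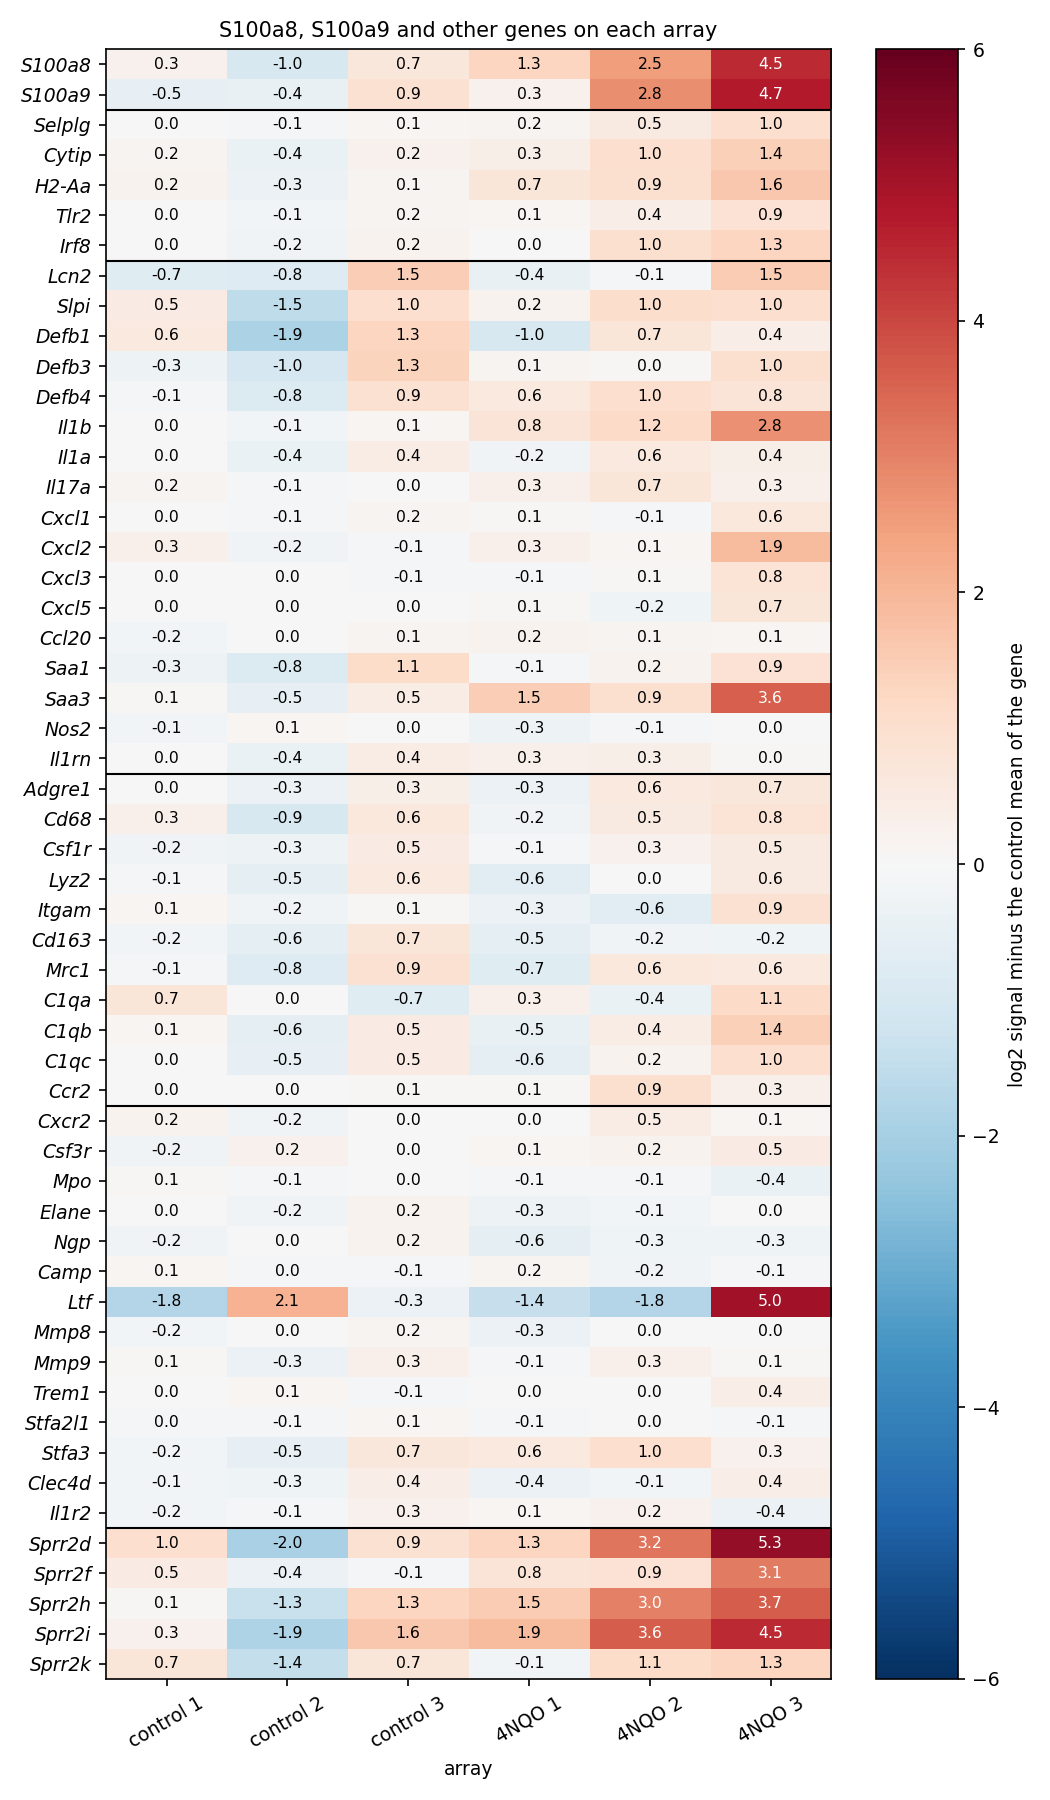
Log2 signal minus the control mean of the gene, by array (columns) and gene (rows), in blocks from the top: S100a8 and S100a9, 5 of the genes alike by r, and all measured response genes, macrophage and monocyte markers, neutrophil markers and Sprr2 genes. The 5 are the immune genes Selplg, Cytip, H2-Aa, Tlr2 and Irf8, while Palmd, Dnajb9, Tgfbr2 and Dio2, also alike by r, are not drawn. 4NQO 3 reads 4.49 for S100a8 and 4.74 for S100a9, and among the neutrophil markers Ltf is the one with a comparable value on that array.

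Partners inside the cell were mixed. Of 12 measured annexins and other intracellular partners, 0 passed limma after adjustment. At an unadjusted p under 0.05, 2 were higher and 1 lower, against 6.68% and 3.74% of all genes, and the median difference was 0.01. Cacybp, the calcyclin-binding protein that S100a6 docks on, had a log2 signal of 8.74, 8.61 and 8.64 in controls and 9.07, 9.30 and 9.14 in treated tongues, groups that did not overlap (0.51, limma adjusted p = 0.216). Anxa1 had 11.32, 11.16 and 11.82 in controls and 11.70, 12.28 and 12.25 in treated tongues (0.65, adjusted p = 0.357). Fgf1, whose release S100A13 assists, had 8.06, 8.25 and 8.18 in controls and 7.56, 7.61 and 7.84 in treated tongues (-0.49, adjusted p = 0.280). Anxa2, the partner of S100a10, differed by 0.20 (adjusted p = 0.632), and Anxa6 by -0.36 (adjusted p = 0.521). With all probe sets of a gene averaged, the difference was smaller, at 0.22 for Anxa1, 0.051 for Anxa2 and -0.29 for Anxa6.

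The list of receptors for S100 proteins outside the cell also held coreceptors and the adaptor Myd88, and all 10 listed genes were measured. In limma 0 passed after adjustment. At an unadjusted p under 0.05, 2 were higher (Myd88 and Nptn) and 0 lower, against 6.68% and 3.74% of all genes, and the median difference was -0.08. Myd88, the adaptor of Toll-like receptors, had a log2 signal of 8.88, 8.69 and 8.97 in controls and 9.31, 9.08 and 9.28 in treated tongues (0.38, limma adjusted p = 0.402). Nptn, the neuroplastin receptor of S100A8, had 8.86, 8.81 and 9.09 in controls and 9.15, 9.49 and 9.24 in treated tongues (0.37, adjusted p = 0.437), a direction that turned to -0.082 when all its probe sets were averaged. Ly96, which assists Toll-like receptor 4, differed by 0.35 (adjusted p = 0.612). Ager, the receptor for advanced glycation end products, lay near the array medians at 4.42 to 4.86 (adjusted p = 0.630).

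The members lie among the genes of the epidermal differentiation complex on chromosome 3. Between S100a13 and S100a10, the outermost members, the RefSeq gene table holds 69 coding genes with the members, and 38 of the others were measured. Of these 38, 0 passed limma after adjustment. At an unadjusted p under 0.05, 7 were higher and 1, S100a5, was lower, against 6.68% and 3.74% of all genes. Groups did not overlap for 6 higher and 1 lower, against 9.59% and 7.18% of all genes. Their median difference was 0.55, beside -0.01 over all genes. The higher ones were Sprr1b, Sprr2d, Sprr2f, Sprr2h, Sprr2i, Lce1c and Lce1m, which encode cornified envelope proteins. Genes of the Sprr2 family are near-identical, and their probe sets may share signal.

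The Sprr2 genes, 5 of them measured, are given in full because some had large differences. Sprr2i had a log2 signal of 5.24, 3.09 and 6.57 in controls and 6.89, 8.59 and 9.46 in treated tongues (3.35, limma adjusted p = 0.256). Sprr2d had 6.59, 3.61 and 6.50 in controls and 6.85, 8.79 and 10.85 in treated tongues (3.26, adjusted p = 0.357), and Sprr2h had 5.07, 3.66 and 6.29 in controls and 6.55, 8.01 and 8.66 in treated tongues (2.73, adjusted p = 0.237). In these genes, as in S100a8, 4NQO 3 was highest and control 2 lowest. Sprr2f had 4.12, 3.23 and 3.46 in controls and 4.35, 4.45 and 6.74 in treated tongues, with 4NQO 1 and 4NQO 2 alike. Sprr2k had 6.22, 4.08 and 6.24 in controls and 5.37, 6.60 and 6.82 in treated tongues, with 4NQO 1 below 2 of the controls. Without 4NQO 3 the difference was 2.25 for Sprr2d and 0.80 for Sprr2f, and without control 2 it was 2.28 for Sprr2d, 2.06 for Sprr2h and 2.41 for Sprr2i. Without 4NQO 1 it was 4.25 for Sprr2d, 3.33 for Sprr2h and 4.06 for Sprr2i, and without control 3 it was 3.37 for Sprr2h and 4.15 for Sprr2i. Sprr1b had 9.14, 8.94 and 10.96 in controls and 11.57, 11.65 and 11.65 in treated tongues (1.94, adjusted p = 0.202). Its treated arrays had the rank order of S100a8 but were nearly level. In limma Sprr1b passed the adjusted threshold in 2 alternatives. Its difference was 2.58 without control 3 and 2.56 without both arrays of weak 5′ Gapdh signal.

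**Figure D4:**
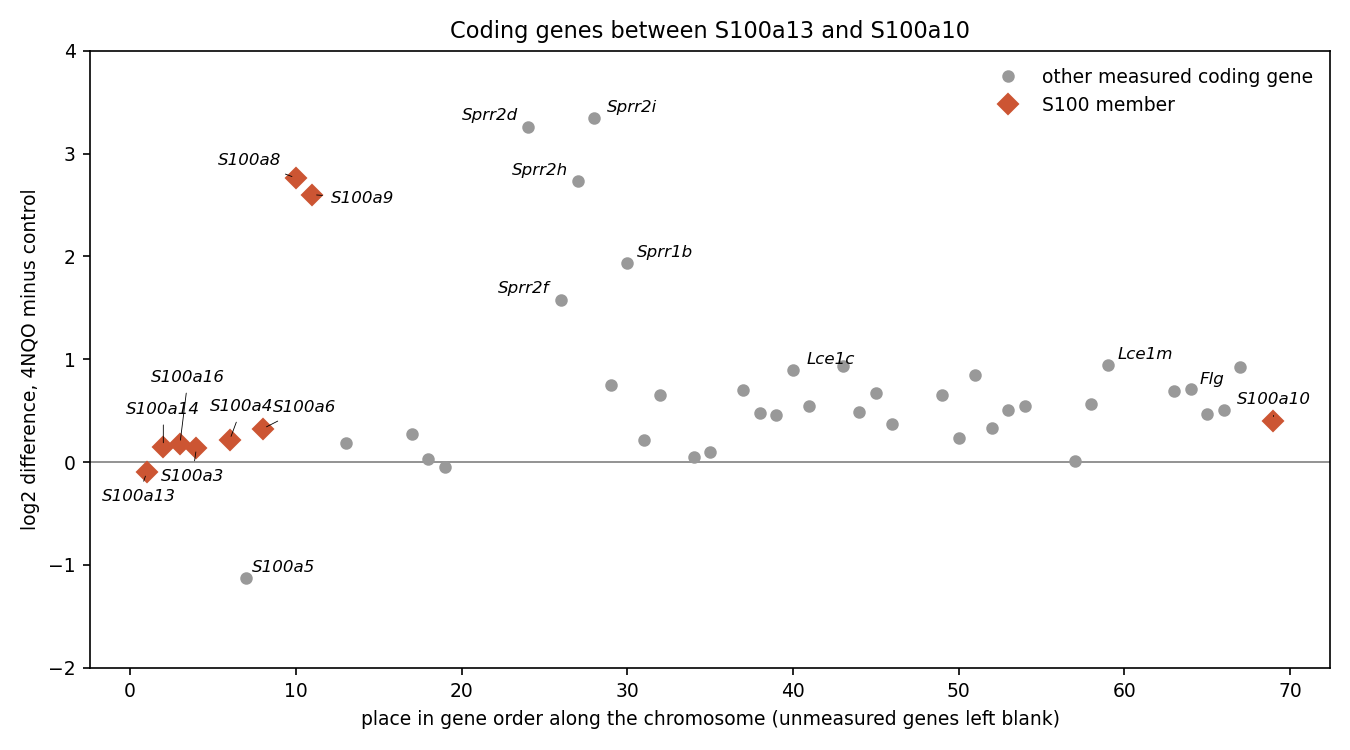
Difference of the group means (log2, vertical axis) for measured coding genes in their order along chromosome 3 from S100a13 to S100a10 (horizontal axis), with S100 members as diamonds and other genes as grey points. S100a8 and S100a9, at 2.76 and 2.60, lie at the height of Sprr2d, Sprr2h and Sprr2i, while the other 7 members lie between -0.10 and 0.40.

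Large proteins that carry an S100 domain at one end also lie in this stretch. All 5 measured of 7 listed had positive differences, from 0.47 to 0.92 with a median of 0.70, but in limma 0 passed after adjustment and 0 at an unadjusted p under 0.05. Flg, filaggrin, had a log2 signal of 6.12, 6.71 and 6.81 in controls and 7.87, 7.06 and 6.80 in treated tongues (0.70, limma adjusted p = 0.489). Here 4NQO 1 was the highest array, unlike in S100a8 and S100a9. Tchhl1 (0.92, adjusted p = 0.498) and Tchh (0.50, adjusted p = 0.584) were also highest on 4NQO 1.

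Keratins of stressed epithelium had another order among the treated tongues than S100a8, while some cornified envelope genes shared its order. Of 14 measured stress keratins and cornified envelope genes, 0 passed limma after adjustment, and 7 were higher at an unadjusted p under 0.05, a call that 6.68% of all genes had. Those 7 had groups that did not overlap, as did 9.59% of all genes in that direction, and the list median was 0.54. Krt16 had a log2 signal of 12.66, 12.42 and 12.14 in controls and 13.49, 12.88 and 13.18 in treated tongues (0.78, limma adjusted p = 0.194). Krt17 had 9.91, 10.23 and 8.58 in controls and 11.72, 10.76 and 11.25 in treated tongues (1.67, adjusted p = 0.223). In both keratins 4NQO 1 was the highest array, whereas S100a8 and S100a9 were lowest there among treated tongues. The order of S100a8 among treated tongues held for 6 of the 14 genes of this list, against 15.9% of all genes. Sprr1b, Sprr2d and Sprr2h were among them.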

How the data were processed

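RNA of 6 individual tongues was hybridized to Affymetrix mouse genome arrays of 45101 probe sets. Each deposited value is the log2 signal of a probe set, normalized by the authors in R with Bioconductor. This comes from the methods of the study's paper, which names another deposit for its arrays but gives the same tissue, dose and duration. The normalization method was not given in the sources used here, and depth has no meaning for arrays, so the number of arrays limits the precision. Groups came from the sample titles.

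From these, 34945 probe sets with 1 gene symbol gave 18193 genes. limma 3.58.1 in R 4.3.3 (lmFit, then eBayes with an intensity trend) compared 4NQO with control, with Benjamini-Hochberg adjustment over all genes at 0.05, and was tested on simulated data. Alternatives were SAM, the methods' t-test, other normalizations, filters and probe set choices, a replicate block, and leaving out arrays. Signals under the array median were taken as not shown to be above background.

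The members and lists were chosen with earlier results of these data known. The rule allowed all S100 genes, up to 3 or 5 genes of each list by limma p, the brightest 2 of cell type lists, and up to 5 genes alike in r for a member, and not all of these are named. Myh2, Krt86, Sprr3, Cxcr2, Mpo, Elane, Camp, Mmp8 and the Sprr2 and Lce genes of the complex were named after their values were seen.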

Additional observations from a re-analysis of the deposited data

How the results depend on the processing

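None of the 7 tested members passed under any of the 20 alternatives, where limma adjusted p went no lower than 0.184. The count of all genes past the threshold moved from 24 to 65 with arrays centred on their medians, 47 with robust variance, 111 at an adjusted p of 0.10, 81 with SAM, 1700 with the methods' t-test before and 2 after Benjamini-Hochberg adjustment, 4 without both arrays of weak 5′ Gapdh signal, and 0 to 27 with 1 array left out (0 without control 2, 1 without 4NQO 2, 10 without 4NQO 1). The median difference of the 9 measured members, 0.21, was 0.45 without both weak arrays and ran from -0.015 (without control 2) to 0.59 (without control 3) with 1 array left out. The members not overlapping numbered 3 without both weak arrays and 0 to 3 with 1 array left out.

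With 1 array left out, differences ran from -0.19 to 0.081 for S100a13, -0.022 to 0.29 for S100a14, -0.015 to 0.29 for S100a16, -0.23 to 0.49 for S100a3, -0.093 to 0.74 for S100a4 and -0.51 to 0.080 for S100b. S100a13 was 0.097 without both weak arrays, and Nptn was -0.082 with its probe sets averaged. The cause of these shifts was not tested.

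Deviations of same-numbered arrays from their group means correlated at 0.29, -0.51 and 0.05 over genes, which are not independent. Those of differently numbered arrays ran from -0.52 to 0.48. Deviations from a mean of 3 arrays are tied to each other, so these values cannot tell whether the replicate numbers pair the tongues. With the replicate block, 2 genes passed and 0 of the 7 members did. The number of arrays limits what could be seen: the 95% limits of S100a4 spanned -0.81 to 1.23.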

Other observations

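By the same likeness in r over 6 arrays, given as a description, the other members had other companions. S100a10 was most like Ostf1 (r = 0.996) and S100a4 most like Asap1 (0.998), genes that were also high on control 3: Ostf1 had a log2 signal of 8.29 there against 7.68 and 7.77 on the other controls, and Asap1 had 7.75 against 6.70 and 6.73. S100a6 was most like Wasl (0.992), a regulator of actin branching, at 8.75 on control 3. S100a16 was most like Pdzk1ip1 (0.994) and the kallikrein Klk8 (0.991), and both were lowest on control 2, at 8.50 and 8.86. S100a14 was most like Eif1ad (0.982), and S100a13 was most like the elastic fiber protein Fbln5 (0.986), at 8.12 on control 3.

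Between members, r over the 6 arrays was 0.953 for S100a8 with S100a9, a pair whose likeness the selection used. It was 0.954 for S100a6 with S100a10, so a value this high was not particular to the first pair.

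In the other cell type lists, in limma, 0 genes passed after adjustment. At an unadjusted p under 0.05, 1 of 10 fibroblast markers was lower (Col1a2), 1 of 7 basal keratinocyte markers was higher (Krt14) and 1 of 6 filiform papilla keratins was lower (Krt35). Of all genes, 6.68% were higher and 3.74% lower at that p. For Schwann cell, adipocyte and suprabasal keratinocyte markers, 0 of 5, 0 of 4 and 0 of 7 passed. Fibroblast markers had a median difference of -0.26, from -0.50 to 0.13. In 2 of them, Col1a2 and Dcn, the treated group was lower without overlap, against 7.18% of all genes. Single genes ranged widely in other lists, from -1.52 to 0.049 among papilla keratins, from -0.20 to 1.62 among suprabasal markers and from -0.049 to 1.18 among adipocyte markers.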
